A study of Mus musculus with 4 samples.

Results

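The serotonin receptor genes of the mouse hippocampus were followed in Tas1r3 knockout mice (KO-WD, n = 2 libraries) and wild-type mice (WT-WD, n = 2 libraries), both kept on a western diet for 18 weeks. Tas1r3 encodes a subunit of the sweet and umami taste receptors, and the series asked what its loss does in the brain of mice made obese by diet. The labels give the genotypes only as KO and WT, and the sources used here do not give the strain, sex, age, pooling or number of animals, or the kind of knockout allele. Since no label ties a library to an animal of its own, a p-value here sets the genotypes against the spread among these 4 libraries, and that spread may be technical. The 10 members were taken by name, Htr1a, Htr1b, Htr1f, Htr2a, Htr2c, Htr3a, Htr4, Htr5a, Htr6 and Htr7. All 10 were present among the 16149 genes of the deposited tables, and all 10 passed the filter on low values that left 15708 genes for testing.

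Serotonin reaches the hippocampus along axons from the raphe nuclei of the brainstem, and its receptors sit on the hippocampal cells that receive it. Receptors of the Htr1 and Htr5 groups couple to Gi/o proteins and lower cyclic AMP, those of the Htr2 group couple to Gq and activate phospholipase C, and Htr4, Htr6 and Htr7 couple to Gs and raise cyclic AMP. Htr3a is the exception, a subunit of a cation channel that serotonin opens directly. Htr2c is also a strong transcript of the choroid plexus, the epithelium beside the hippocampus that secretes cerebrospinal fluid, where Ttr (transthyretin) is the leading transcript.

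Values are the authors' normalized signal in units, summed over the transcripts of a gene, and an estimated 1 read was worth between 0.188 and 0.258 units. The KO-WD libraries held an estimated 13498055 and 12929173 reads and the WT-WD libraries 11584472 and 15946768. A count of 3 reads, taken as the floor, is 0.666 and 0.695 units in KO-WD and 0.775 and 0.563 units in WT-WD, and covers counting error only. Tas1r3 itself had 0.887 and 1.85 units in KO-WD, against 16.1 and 15.9 units in WT-WD, so each library matched its genotype label (log2 -2.88, SE 0.34, limma adjusted p = 0.0817). Hippocampal neurons were present in all 4 libraries, with the vesicular glutamate transporter Slc17a7 at 2167 and 2157 units in KO-WD and 1958 and 2094 units in WT-WD. In bulk tissue, fewer cells of a type and less RNA per cell cannot be told apart.

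Of the 10 serotonin receptors, 9 had a higher estimate in KO-WD and 1, Htr5a, a lower one, but none passed the test over all genes. In limma, 0 of the 10 passed an adjusted p of 0.05, where 0.0637% of all tested genes did, and 1 of the 10 (Htr2c) had an unadjusted p under 0.05 and was higher, where 2.38% of all tested genes were higher at that level. Each KO-WD library exceeded each WT-WD library for 6 receptors, Htr1b, Htr2a, Htr2c, Htr3a, Htr4 and Htr6, where 17.9% of all tested genes did so. The reverse held for 0 receptors, where 18.4% of all tested genes did so. The median log2 difference of the 10 receptors was 0.29, beside 0.00024 over all tested genes. With 2 libraries a group, an exact permutation test of a single gene cannot go below p = 0.333.

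The summed signal of the 10 receptors was 344.7 and 349.5 units in KO-WD, against 294 and 251.6 units in WT-WD. Without Htr2c, the sum over the other 9 was 228 and 252.3 units in KO-WD, against 221.3 and 188.8 units in WT-WD. The groups did not overlap in either sum, and WT-WD replicate 2 was the lowest library in both. The Gq-coupled pair supplied 38.6% and 32.5% of the receptor signal in KO-WD, against 29.2% and 29% in WT-WD, and Gi/o-coupled members supplied 29.4% and 31.7% in KO-WD, against 33.3% and 37% in WT-WD. These shares are of signal, which is not corrected for transcript length. In units, Gi/o-coupled members were higher in KO-WD, at 101.5 and 110.7, against 97.8 and 93 in WT-WD. Their lower share in KO-WD thus went with a larger total, not with a lower signal. Most of the Gq-coupled signal was Htr2c, at 116.7 and 97.2 units in KO-WD, against 72.7 and 62.8 units in WT-WD.

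**Figure D1:**
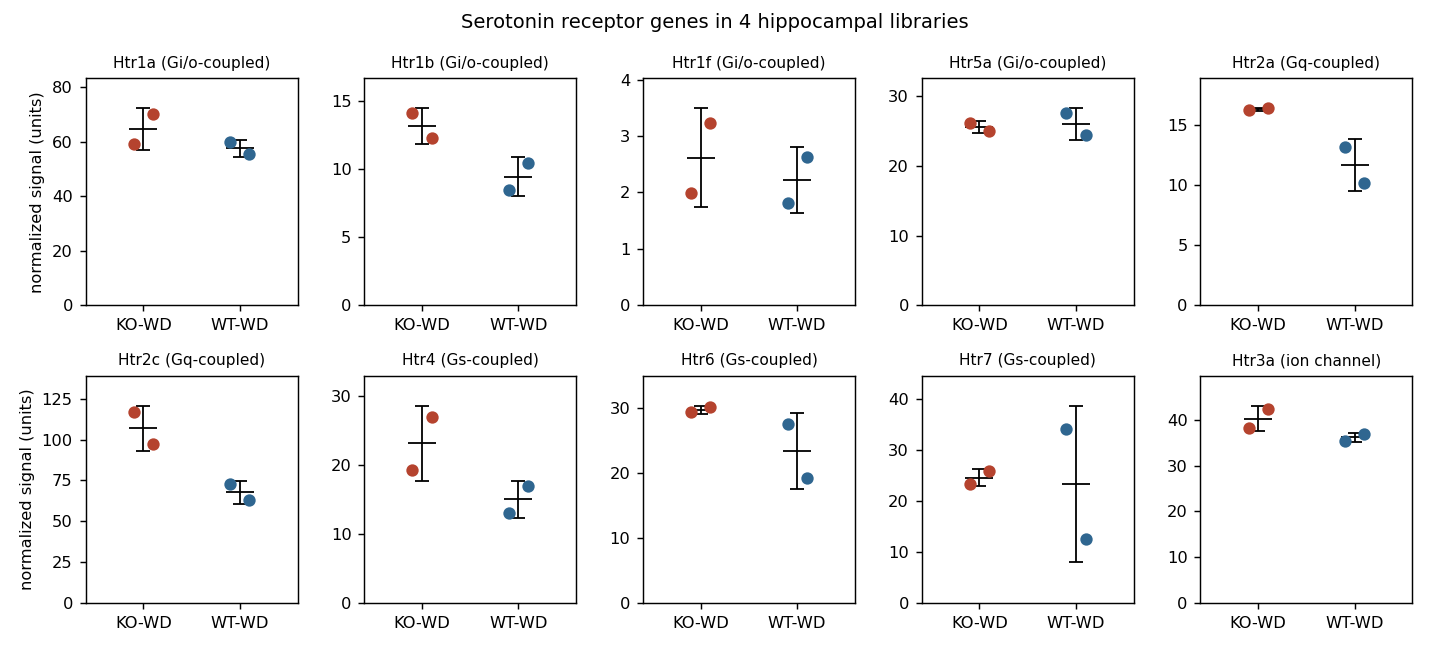
Normalized signal in units (y axis, from 0, a scale of its own for each gene) of the 10 serotonin receptor genes in KO-WD (red, left) and WT-WD (blue, right). Points are libraries and bars are the mean with the SD of 2 libraries. The groups are apart for Htr2c, at 107 units in KO-WD and 67.7 units in WT-WD, and overlap for Htr5a and Htr7.

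Per kilobase of transcript, Htr3a and Htr2c were the strongest serotonin receptor transcripts and Htr1f the weakest. Lengths came from GENCODE M21, from the transcript that carries the same accession and version, or else from the longest coding transcript of the gene. This rule set the length of Htr1b, Htr2a and Htr6 and of some transcripts of Htr4 and Htr7 by the longest coding transcript, so their levels per kilobase are approximate. Htr3a averaged 20.1 ± 1.61 units per kilobase in KO-WD and 18 ± 0.58 in WT-WD (SD, n = 2 each), and Htr2c 22.5 ± 2.90 in KO-WD and 14.3 ± 1.47 in WT-WD. Htr1a averaged 14.4 ± 1.73 and Htr6 12.7 ± 0.26 units per kilobase in KO-WD, against 12.9 ± 0.70 and 10 ± 2.51 in WT-WD. Neighbours in the order Htr3a, Htr2c, Htr1a, Htr6, Htr7 and Htr4 overlapped over the 4 libraries. Htr5a, at 4.76 ± 0.15 units per kilobase in KO-WD and 4.84 ± 0.42 in WT-WD, lay below Htr4 in every library as computed. In WT-WD replicate 1 the margin was small, at 5.14 for Htr5a and 5.17 for Htr4. The order of Htr4 and Htr5a also rests on the length of 1203 bases used for the Htr4 transcript NM_001364957. The other Htr4 transcripts were given 4661 bases. Htr2a (2.90 ± 0.020 in KO-WD and 2.08 ± 0.38 in WT-WD) and Htr1b (2.79 ± 0.28 in KO-WD and 2.0 ± 0.30 in WT-WD) overlapped each other and lay below Htr5a. Htr1f stood alone at the bottom, with 1.01 ± 0.34 units per kilobase in KO-WD and 0.86 ± 0.23 in WT-WD.

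Among the Gi/o-coupled receptors, Htr1a had the highest signal and Htr1b the largest log2 difference. Htr1a (NM_008308, chromosome 13), the inhibitory receptor carried by hippocampal pyramidal and granule cells and, in the raphe, the autoreceptor of serotonin neurons, had 59.2 and 70.2 units in KO-WD, against 59.9 and 55.5 units in WT-WD. KO-WD replicate 2 was the highest of the 4 libraries and the groups overlapped, with a log2 difference of 0.16 (95% interval -0.22 to 0.54) that was 0.039 without KO-WD replicate 2 and 0.28 when replicate 1 was left out instead. Htr1b (NM_010482, chromosome 9), an inhibitory receptor found on axon terminals, had 14.1 and 12.2 units in KO-WD, against 8.43 and 10.5 units in WT-WD. Both KO-WD libraries were higher, by 0.44 on the log2 scale (95% interval -0.18 to 1.07, limma adjusted p = 0.902), with an interval that includes 0. In GENCODE M21, exons of Htr1b overlap D430036J16Rik on the opposite strand by 729 bases, and whether reads were assigned by strand is not given in the sources used here. None of the other 9 receptors had an exon that overlapped another gene there.

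Htr5a and Htr1f completed the Gi/o group. Htr5a (NM_008314, chromosome 5), a Gi/o-coupled receptor found mainly in the nervous system, had 26.2 and 25 units in KO-WD, against 27.6 and 24.4 units in WT-WD. The KO-WD values lay between the WT-WD values, and the log2 difference was -0.023 (95% interval -0.48 to 0.44), turning to 0.0626 without WT-WD replicate 1. Htr1f (NM_008310, chromosome 16), a receptor targeted by some migraine drugs in humans, had 1.99 and 3.24 units in KO-WD, against 1.81 and 2.63 units in WT-WD. These levels rest on an estimated 8.99 and 14 reads in KO-WD and 6.99 and 14 reads in WT-WD, and a difference was not detectable at this depth (log2 0.16, 95% interval -0.76 to 1.08, and -0.0923 without KO-WD replicate 2).

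**Figure D2:**
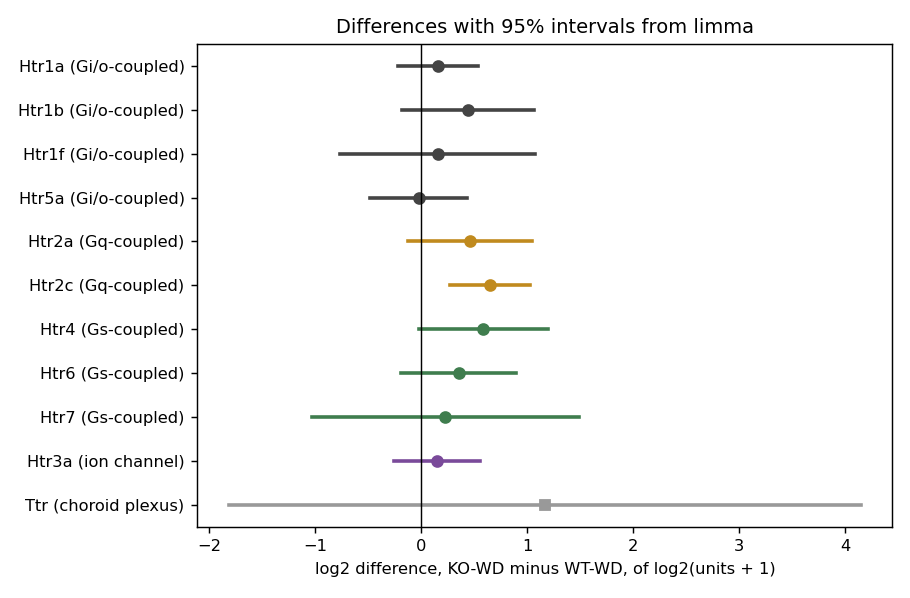
Log2 difference (x axis, KO-WD minus WT-WD on the log2(units + 1) scale) of each serotonin receptor and of Ttr, with points for the estimate and lines for limma's 95% interval. The interval lies wholly above 0 for Htr2c alone, and the interval of Ttr runs from -1.81 to 4.15.

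The Gq-coupled receptors, Htr2a and Htr2c, were both higher in each KO-WD library than in each WT-WD library. Htr2a (NM_172812, chromosome 14), the cortical receptor on which classical psychedelics act, had 16.2 and 16.4 units in KO-WD, against 13.2 and 10.1 units in WT-WD. The KO-WD libraries nearly coincided, and the log2 difference was 0.46 (95% interval -0.13 to 1.05, limma adjusted p = 0.902), or 0.29 without WT-WD replicate 2. Htr2c (NM_008312, chromosome X), the receptor whose pre-mRNA is edited by ADAR enzymes in brain, had 116.7 and 97.2 units in KO-WD, against 72.7 and 62.8 units in WT-WD. It averaged 107 ± 13.8 units in KO-WD and 67.7 ± 7.0 in WT-WD (SD, n = 2 each), a log2 difference of 0.65 (SE 0.16, 95% interval 0.27 to 1.02), or 1.57-fold. Its unadjusted p in limma was 0.00445, rank 101 of the 15708 tested genes. The adjusted p was 0.692 and missed the threshold (between 0.207 and 1.00 under the 13 alternatives tried).

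Ttr, the yardstick for choroid plexus, overlapped between the genotypes. It had 6440 and 3078 units in KO-WD, against 3212 and 1223 units in WT-WD, a log2 difference of 1.17 (SE 0.80). WT-WD replicate 2 was the lowest library for both genes and KO-WD replicate 1 the highest, but KO-WD replicate 2 and WT-WD replicate 1 were level for Ttr and apart for Htr2c. The span was narrower for Htr2c, with KO-WD replicate 1 at 1.86 times the lowest library, than for Ttr, at 5.27 times. Per 1000 units of Ttr there were 18.1 and 31.6 units of Htr2c in KO-WD, against 22.6 and 51.3 units in WT-WD. This ratio overlapped between the genotypes and was highest in the library with the least Ttr. The log2 difference of Htr2c minus that of Ttr was -0.52, smaller than the SD of 0.72 between libraries of a genotype, and without WT-WD replicate 2 it was 0.0743.

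Across the whole choroid plexus list, 17 of 18 markers were higher in KO-WD, both KO-WD values exceeded both WT-WD values in 10 (17.9% of all tested genes), and no marker was at 0 in any library. Their summed signal was 7629 and 3914 units in KO-WD, against 3848 and 1648 units in WT-WD, most of it Ttr. Without Ttr the other 17 summed to 1189 and 836 units in KO-WD, against 636 and 425 units in WT-WD. The median log2 difference of the 18 was 0.97. None of the 18 passed over all genes in limma, and 9 had an unadjusted p under 0.05, all higher (2.38% of all tested genes). F5 (coagulation factor V), Otx2 (a homeobox factor of that epithelium) and Prlr (the prolactin receptor) had the smallest p-values of the list, with log2 differences of 1.36, 1.34 and 1.35. The difference was larger than that of Htr2c in 15 of the 18. Htr2c ranked its libraries KO-WD replicate 1, KO-WD replicate 2, WT-WD replicate 1 and WT-WD replicate 2 from high to low, and 8 of the 18 markers had this order, where 4.5% of all tested genes did. Clic6, a chloride channel protein of that list, was picked after its values were seen. Per 1000 units of Clic6, Htr2c was at 785 and 779 units in KO-WD, against 821 and 1167 units in WT-WD. The log2 difference of Clic6 was 0.97, larger than that of Htr2c. Slc13a4, Calml4 and Kcne2 had smaller log2 differences than Htr2c, at -0.13, 0.16 and 0.57. The part of the choroid plexus in the Htr2c difference was not tested.

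**Figure D3:**
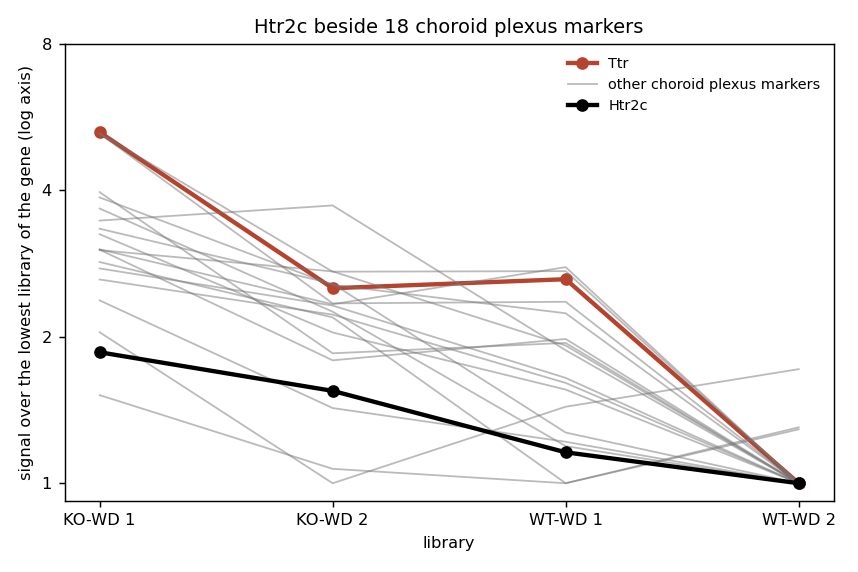
Signal of Htr2c (black), Ttr (red) and the other choroid plexus markers (grey) in each library (x axis), divided by the lowest library of the same gene (y axis, log scale). Htr2c spans 1.86 times between its extreme libraries, against 5.27 times for Ttr, and both are lowest in WT-WD replicate 2.

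Among 10570 other genes averaging at least 20 units, the pattern of Htr2c over the 4 libraries was most closely matched by Trpm3, Ube2j2, Car12, Kyat1 and Tuba8. Likeness was the root mean square difference between log2 values centred on the mean of the 4 libraries, and these 5 genes had 0.064, 0.0722, 0.0786, 0.0818 and 0.0833, beside a deviation of Htr2c from its own mean of 0.345. Trpm3, a cation channel, had 785.8 and 700.4 units in KO-WD, against 484.2 and 401.6 units in WT-WD. Car12, a membrane-bound carbonic anhydrase, had 238.9 and 182 units in KO-WD, against 137 and 110.5 units in WT-WD. Ube2j2, Kyat1 and Tuba8 had log2 differences of 0.51, 0.51 and 0.49. With only 4 libraries, 4.5% of all tested genes had the same library order as Htr2c. Ttr, whose span was wider, had a difference of 0.569 and ranked 9850 of the 10570 by likeness.

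The Gs-coupled receptors Htr4 and Htr6 were higher in both KO-WD libraries, while Htr7 differed mainly between the WT-WD libraries. Htr4 (chromosome 18) and Htr6 (chromosome 4) have both been studied as drug targets for memory. Htr4 had 19.4 and 27 units in KO-WD, against 13.1 and 17 units in WT-WD, a log2 difference of 0.59 (95% interval -0.024 to 1.20, limma adjusted p = 0.902) that was 0.36 without KO-WD replicate 2. Its groups did not overlap, but the nearest values of the groups, KO-WD replicate 1 and WT-WD replicate 2, were closer than the libraries within either group. Htr6 (NM_001377096) had 29.3 and 30.2 units in KO-WD, against 27.6 and 19.3 units in WT-WD, a log2 difference of 0.35 (95% interval -0.19 to 0.89). WT-WD replicate 1 lay close under the KO-WD libraries, and without WT-WD replicate 2 the log2 difference was 0.11. Htr6 lies on chromosome 4 with Tas1r3, 184 tested genes away from it in the GRCm38.p6 gene table.

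Htr7 (chromosome 19), a Gs-coupled receptor of hippocampal and thalamic neurons, had 23.4 and 25.8 units in KO-WD, against 34.2 and 12.5 units in WT-WD. The WT-WD libraries lay on either side of both KO-WD libraries, and the log2 difference of 0.23 had an interval from -1.03 to 1.49 and was -0.46 without WT-WD replicate 2. Most of that spread lay in a single transcript, NM_001360300, which had 8.69 and 1.27 units in KO-WD, against 27.4 and 0.43 units in WT-WD. That transcript made up 80.2% of Htr7 in WT-WD replicate 1 and 3.43% in WT-WD replicate 2. Without it the log2 difference of Htr7 was 0.99, an alternative chosen after seeing the data.

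The coding sequences show what sets this transcript apart, and are given here because the gene total turns on it. Before codon 184 it matches NM_008315, which encodes 448 codons before its stop. At that point, within the conserved DRY motif at the inner end of the third membrane segment, it loses the codon TAC for the Y and continues into other sequence and stops after 198 codons, short of the remaining membrane segments. The lines below are read 5′ to 3′ along the transcript from GENCODE M21 (GRCm38, chromosome 19, minus strand), with 24 shared bases in lower case and the bases that differ in capitals, of which the first 60 of 795 are shown for NM_008315. The closing tga of NM_001360300 is its stop codon. It is in lower case only because the coding sequence of NM_008315, which is longer, ends in the same letters.
NM_008315: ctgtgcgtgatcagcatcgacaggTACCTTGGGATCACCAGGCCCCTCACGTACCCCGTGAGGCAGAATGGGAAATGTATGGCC
NM_001360300: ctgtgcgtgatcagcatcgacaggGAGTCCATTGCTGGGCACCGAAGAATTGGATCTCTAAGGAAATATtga

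The full-length transcript NM_008315 was higher in KO-WD, without passing the test. It had 10.1 and 7.69 units in KO-WD, against 2.06 and 1.75 units in WT-WD, from an estimated 45.6 and 33.2 reads in KO-WD and 7.97 and 9.32 reads in WT-WD. The genotypes did not overlap, with a log2 difference of 1.76 (SE 0.47, unadjusted p = 0.0166), but its limma adjusted p over 29293 transcripts was 0.816. A further Htr7 transcript, NM_001360318, differs from NM_008315 at its end, where it stops after 435 codons. It had 3.59 and 13.2 units in KO-WD, against 3.71 and 6.98 units in WT-WD. It was high in the second library of each genotype, where NM_001360300 was low. The remaining Htr7 transcript, NM_001347442, had 0.969 and 3.57 units in KO-WD, against 1.00 and 3.37 units in WT-WD, and its groups overlapped. How the authors' quantification divided reads between NM_008315 and NM_001360318, whose coding sequences match up to their ends, is not given in the sources used. The ends of NM_008315 and NM_001360318 follow, with shared bases in lower case and the bases from the first difference on in capitals. The last letter of each stop codon is the same and is in lower case for that reason only.
NM_008315: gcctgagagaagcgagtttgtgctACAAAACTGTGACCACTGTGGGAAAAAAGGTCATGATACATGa
NM_001360318: gcctgagagaagcgagtttgtgctGTAa

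Htr3a (chromosome 9), the channel subunit found in hippocampus mainly on interneurons, kept nearly the same total in every library. It had 38.3 and 42.3 units in KO-WD, against 35.5 and 36.9 units in WT-WD, a log2 difference of 0.15 (95% interval -0.26 to 0.55), or 0.080 without KO-WD replicate 2. The genotypes did not overlap, by a margin smaller than the spread between the KO-WD libraries. The gene has 2 deposited transcripts, which differ by 18 bases, or 6 codons, inside the coding sequence (chromosome 9, minus strand, GENCODE M21, GRCm38). They are printed because the division between them varied far more than the total, and the capitals mark the extra bases.
NM_013561: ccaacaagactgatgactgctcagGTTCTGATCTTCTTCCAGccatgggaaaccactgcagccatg
NM_001099644: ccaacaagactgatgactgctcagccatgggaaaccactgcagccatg

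The longer form of Htr3a, NM_013561, made up 39.1% and 6.85% of the gene in KO-WD, against 28.6% and 14.7% in WT-WD. The groups overlapped, and the share was higher in the first library of each genotype. NM_001099644, the shorter form, had 23.3 and 39.4 units in KO-WD, against 25.4 and 31.5 units in WT-WD. How the authors' quantification divided reads between transcripts that share most of their bases is not given in the sources used here.

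Of the 16 deposited transcripts of the 10 receptors, all were tested and 0 passed over all transcripts in limma, where 0% of all transcripts did, and 2, of Htr2c and Htr7, had an unadjusted p under 0.05, where 5.69% of all transcripts did. KO-WD was above WT-WD in every pair of libraries for 7 of the 16, where 17.1% of all transcripts did so. The reverse held for 0 of the 16, but its share over all transcripts was not counted. Among the 3 transcripts of Htr4, NM_008313 had 9.78 and 18.1 units in KO-WD, against 9.26 and 8.58 units in WT-WD. NM_001364956 had 3.54 and 4.15 units in KO-WD, against 0.0139 and 2.95 units in WT-WD, the first of these WT-WD values being below the floor of 3 reads.

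**Figure D4:**
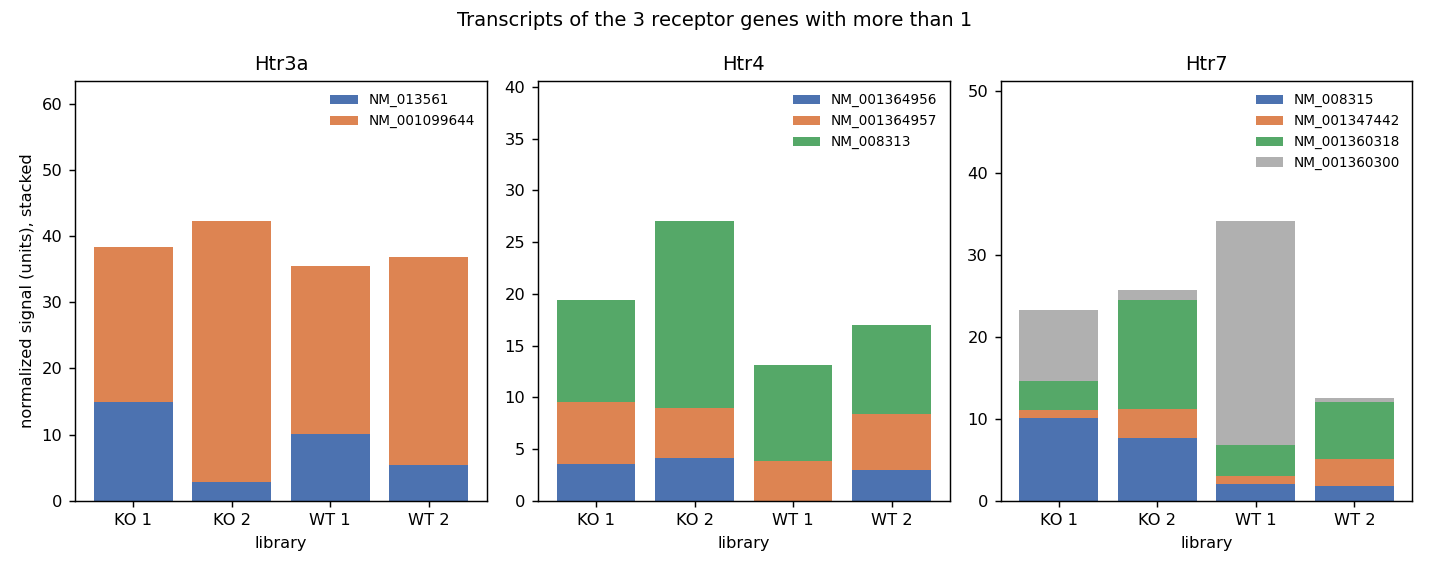
Normalized signal in units (y axis, stacked) of each deposited transcript of Htr3a, Htr4 and Htr7 in the 4 libraries (x axis). The Htr7 bar of WT-WD replicate 1 is filled mostly by NM_001360300 at 27.4 units, against 0.43 units in WT-WD replicate 2.

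Of the serotonin receptors outside the 10, Htr5b and Htr2b had values. Htr5b, a relative of Htr5a that is functional in rodents, had 9.54 and 13.7 units in KO-WD, against 6.39 and 11.4 units in WT-WD, and the groups overlapped (log2 0.38, 95% interval -0.44 to 1.19). Htr2b had 0.222 and 0.697 units in KO-WD, against 1.55 and 0.602 units in WT-WD, around the floor of 3 reads, and did not pass the filter. Htr1d and Htr3b were not analysed here.

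Transcripts of serotonin neurons, whose cell bodies lie outside the hippocampus, were low, and their groups overlapped. Tph2, the enzyme that starts serotonin synthesis in neurons, had 1.11 and 1.86 units in KO-WD, against 1.58 and 2.83 units in WT-WD. Slc6a4, the serotonin transporter, had 0.449 and 1.57 units in KO-WD, against 0.516 and 0.375 units in WT-WD, close to or under the floor in all but KO-WD replicate 2. Slc18a2, the vesicular monoamine transporter, was clear of the floor, with 4.88 and 7.40 units in KO-WD, against 4.13 and 4.89 units in WT-WD. No level of serotonin input can be read from these values.

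Genes for serotonin synthesis, transport and breakdown did not move one way. Of 12 tested, 7 had a higher and 5 a lower estimate in KO-WD, with a median log2 difference of 0.0493, and 0 passed over all genes in limma, with 3 at an unadjusted p under 0.05 (1 higher, 2 lower), where 5.28% of all tested genes were at that level in either direction. Slc29a4, a low-affinity monoamine transporter also found in choroid plexus, had 95.7 and 87.9 units in KO-WD, against 66.7 and 66.1 units in WT-WD (log2 0.46, SE 0.14, adjusted p = 0.848). Qdpr, which regenerates the tetrahydrobiopterin used by tryptophan hydroxylase, had 213.2 and 218.1 units in KO-WD, against 262.8 and 301.5 units in WT-WD (log2 -0.38, SE 0.12, adjusted p = 0.848). Gch1, the entry enzyme of tetrahydrobiopterin synthesis, had 3.32 and 2.78 units in KO-WD, against 6.66 and 5.63 units in WT-WD. For each of these genes the groups did not overlap.

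The signalling machinery below the receptors had medians close to 0. The median log2 difference was -0.0030 over 15 Gi/o transducers and GIRK channels (7 with a higher and 8 with a lower estimate). It was 0.0015 over 13 Gq transducers (7 higher, 6 lower) and -0.0713 over 21 Gs transducers (6 higher, 15 lower). Both KO-WD libraries lay below both WT-WD libraries in 6, 1 and 8 genes of these lists, where 18.4% of all tested genes did. They lay above in 2, 1 and 3 genes, where 17.9% of all tested genes did. None of these genes passed over all genes in limma, and 3, all of the 21 in the Gs list, had an unadjusted p under 0.05, beside 5.28% of all tested genes. They were Adcy8, a calcium-stimulated adenylyl cyclase, at 42.2 and 35.2 units in KO-WD, against 58 and 79.5 units in WT-WD, and, in the other direction, Adcy6 (log2 0.41) and the cyclic AMP phosphodiesterase Pde4a (log2 0.31). Gng3, Gnb1 and Gnao1 had the smallest p-values of the Gi/o list, with log2 differences of 0.19, -0.18 and -0.16, and Plcb2, Prkca and Plcb1 those of the Gq list, with -0.65, 0.10 and -0.10.

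Partners and regulators of the receptors were divided as well. Of 21, 12 had a higher and 9 a lower estimate, with a median of 0.0020, and 0 passed in limma or had an unadjusted p under 0.05. Cdk5, a neuronal kinase that binds Htr6, had 599.1 and 1295 units in KO-WD, against 2343 and 1864 units in WT-WD. The groups were apart, but the KO-WD libraries lay farther from each other than KO-WD replicate 2 lay from WT-WD replicate 2, and the interval of its log2 difference of -1.24 ran from -2.87 to 0.38. S100a10, the p11 protein that carries Htr1b and Htr4 to the membrane, had 30.1 and 17.8 units in KO-WD, against 35.1 and 29.6 units in WT-WD, and overlapped. Cops5, which binds Htr6, had a log2 difference of -0.25.

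**Figure D5:**
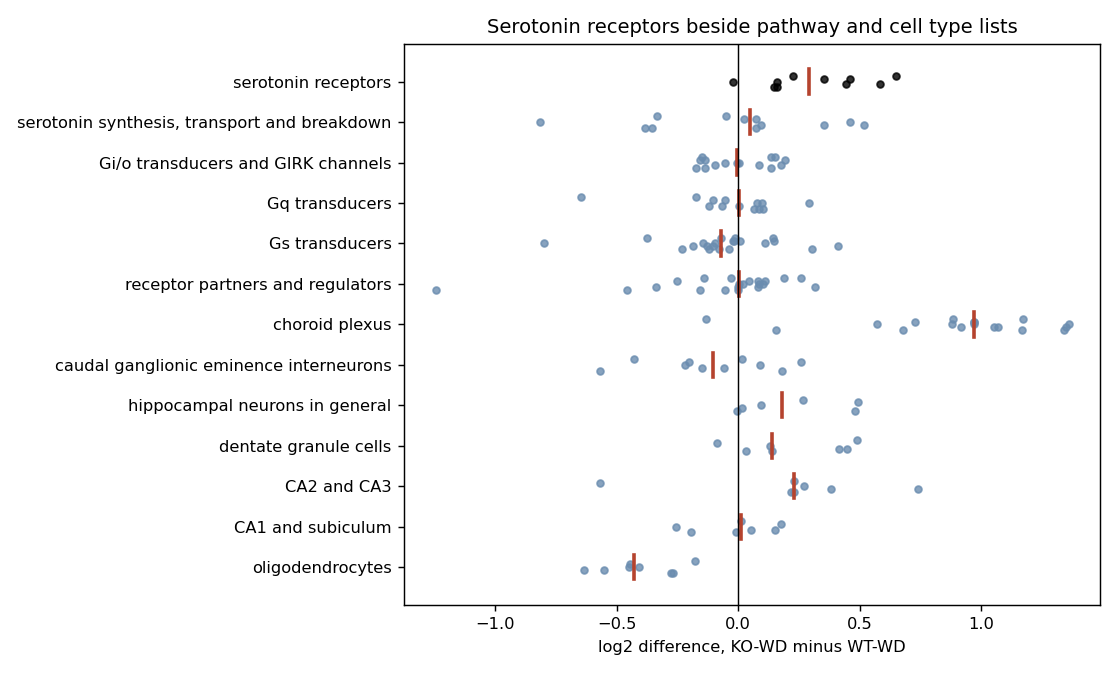
Log2 differences (x axis, KO-WD minus WT-WD) of the tested genes of the receptors and of the pathway and cell type lists shown (points, a row of the y axis for each list), with the list median as a red bar. The serotonin receptors have a median of 0.29, the choroid plexus markers 0.97 and the oligodendrocyte markers -0.43.

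Marker lists of several cell types had medians away from 0, and their part in the receptor values was not tested. Among hippocampal neuron markers, 5 of 6 general markers (median log2 0.18), 6 of 7 dentate granule cell markers (0.14), 6 of 7 CA2 and CA3 markers (0.23) and 4 of 7 CA1 and subiculum markers (0.011) had a higher estimate in KO-WD. An unadjusted p under 0.05 in limma was reached by 3 of the 7 granule cell markers, Lct, Pdzd2 and Dsp. It was also reached by 1 of the 7 CA2 and CA3 markers, Cacng5, and by 0 of the general and CA1 markers. Their log2 differences were 0.49, 0.42, 0.45 and 0.74, and 2.38% of all tested genes were higher at that level. The summed granule cell markers were at 1016 and 1153 units in KO-WD, against 853.9 and 933.3 units in WT-WD. Oligodendrocyte markers were lower in 8 of 8 cases (median -0.43), and their sum was 93386 and 83856 units in KO-WD, against 100537 and 114782 units in WT-WD, most of it Mobp. Of these 8, 5 were lower at an unadjusted p under 0.05, where 2.9% of all tested genes were. None of these markers passed over all genes in limma.

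Interneurons from the caudal ganglionic eminence, among which Htr3a is a standard marker, were divided in direction. Of their 10 markers, 4 were higher and 6 lower (median -0.11), and their sum was 1138 and 1047 units in KO-WD, against 1136 and 1127 units in WT-WD. Vip, a neuropeptide of such cells, had 34.5 and 22.4 units in KO-WD, against 43.5 and 40 units in WT-WD (log2 -0.57, unadjusted p = 0.0472), and Ndnf and Lamp5 had log2 differences of -0.43 and -0.20. General interneuron markers were 4 higher and 4 lower (median 0.0085). The medians of the remaining lists were 0.094 for thalamus and habenula, 0.21 for striatum, -0.20 for neocortex, -0.093 for astrocytes, -0.22 for microglia and -0.36 for endothelium and mural cells, and 0 of their genes passed over all genes in limma. An unadjusted p under 0.05 was reached by 1 gene of the thalamus and habenula list, 2 of the astrocyte list, all lower, and 4 of the endothelium and mural list, 2 higher and 2 lower, beside 5.28% of all tested genes.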

How the data were processed

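Total RNA of hippocampus (4 libraries) was extracted with RNAqueous-4PCR and prepared with Ion Total chemistry, per the labels' protocols. STAR, Partek and the build mm39 are named in the submitters' processing notes, without versions. For each library the authors deposited a normalized signal per RefSeq transcript (30108 transcripts), scaled to nearly equal totals. The sources used here do not give the normalization method, annotation release or use of strand.

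A constant of 0.0001 was removed. Transcripts were named from a RefSeq gene table of GRCm38.p6 (30073 matched, 35 did not) and summed by gene. No coordinates are printed, since that build is not the authors'. The worth of 1 read was taken as the step at which low values pile up. Between 16.9% and 23.5% of values below 20 reads were whole within 0.02 read, so no count test was used.

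The filter kept genes that reached 1 unit in 2 or more libraries. They were tested as log2(value + 1), a scale that understates the change of low genes, in limma 3.58.1 (R 4.3.3) with intensity trend and robust moderation, genotype as the only term and Benjamini-Hochberg adjustment over all genes or all transcripts at 0.05. p-values are two-sided. The fit was also run on simulated data. The changes planted there were far larger than those of the receptors, so that run does not show power or error rates for the receptors.

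The receptors and gene lists were chosen with earlier results of these data known. The rule for names was all 10 receptors, the other serotonin receptors, Tas1r3, Ttr, up to 3 genes of a list by smallest unadjusted p, the most abundant marker, and the 5 genes most like Htr2c. For lists of other cell types mainly counts and medians are given. Slc6a4 and Clic6 were named for their roles after their values were seen. Slc13a4, Calml4 and Kcne2 were named for log2 differences smaller than that of Htr2c.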

Additional observations from a re-analysis of the deposited data

How the results depend on the processing

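Having 2 libraries a genotype limits every comparison here, with an interval as wide as -1.03 to 1.49 for Htr7. Under 13 alternatives (other scalings, filters, pseudocounts and variance models, coding transcripts alone, the replicate block and leaving out each library), 0 receptors passed, and under 8 alternatives 0 of their transcripts did. The receptors' median log2 difference lay between 0.23 and 0.36 and that of Htr2c between 0.52 and 0.78. The difference of Htr2c minus Ttr lay between -1.11, where WT-WD replicate 1 was left out, and 0.0743, where WT-WD replicate 2 was.

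The number of genes called, 10, was 47 with the replicate block, 1 with coding transcripts alone and 0 for limma without trend and robust moderation, and between 14 and 94 when 1 library was left out, with the lone library assumed to vary like the other genotype's. The adjusted p of Htr2c with the replicate block was 0.391, and the block changed no receptor's call. The labels give same-numbered libraries only a number in common. The difference of replicate 1 minus replicate 2 correlated at 0.0383 between the genotypes across genes. A correlation over all genes cannot show whether same-numbered libraries were handled together, and pairing was not tested further.

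Signs reversed for uncalled receptors when 1 library was left out. Htr1f ranged between -0.0923 and 0.41 when 1 library was left out, and was below 0 without KO-WD replicate 2 or WT-WD replicate 1 (-0.0271). Htr5a ranged between -0.11 and 0.0626, and was above 0 without KO-WD replicate 2 (0.0086) or WT-WD replicate 1. Htr7 ranged between -0.46, where WT-WD replicate 2 was left out, and 0.92. The cause was not tested. Htr1f had no value with the filter at 5 units, which it did not pass.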
